A study of Homo sapiens with 8 samples.

Results

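The G1 cyclins, their kinases and the RB pathway are described here in A549 cells treated with indisulam, SPHINX31 or both. The members are a fixed list of 10 genes named by their roles and chosen with earlier results of these data known: the cyclins CCND1, CCND3, CCNE1 and CCNE2, the kinases CDK2, CDK4 and CDK6, the inhibitor CDKN1B, the retinoblastoma gene RB1 and the transcription factor E2F1. They are 10 of the 60624 genes in the count tables, matched by Ensembl identifier to GENCODE 44 on GRCh38. All 10 passed the filter on low counts and are among the 18661 genes tested.

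A549 cells are an established line from a human lung adenocarcinoma. Indisulam is a molecular glue that recruits the splicing factor RBM39 to a ubiquitin ligase for degradation, and SPHINX31 inhibits SRPK1, a kinase of splicing factors. The study asked whether blocking both acts together on splicing, and RNA was sequenced from untreated cells and from cells given indisulam, SPHINX31 or the combination. Each of the 4 groups had 2 libraries, which the series calls technical duplicates, so that p-values measure only the spread between libraries and not that between independent treatments. By the study's methods, A549 cells received 0.5 μM indisulam, 5 μM SPHINX31 or both for 24 h. The protocol attached to all 8 samples, the untreated ones included, instead names 2 μM indisulam and 18 h. The study's methods give that dose and time for another experiment, in a pancreatic cancer line. The labels alone do not settle which of these applies to the libraries. The labels name no engineered allele in any group.

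Progress through G1 depends on D-type cyclins, which bind CDK4 and CDK6 and begin to phosphorylate the retinoblastoma protein. E-type cyclins with CDK2 complete this phosphorylation, RB releases E2F transcription factors, and E2F targets such as the replication licensing genes are transcribed. CDKN1B (p27) restrains cyclin and CDK2 complexes, and much of the control of this pathway is at the level of protein stability and phosphorylation, which RNA counts do not show.

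Between 51727369 and 63186989 counts per library fell on genes, and the members had between 209 counts (CCNE2 in a SPHINX31 library) and 17321 counts (CCND1 in a SPHINX31 library). Levels are given as CPM, counts scaled to library size with TMM factors, which lay between 0.978 and 1.02. All 8 markers of epithelial and A549 cells were above 1 CPM in every library. Of 9 markers of blood, endothelium, fibroblasts and liver, 1 (PECAM1) was above 1 CPM in every library, and their sum was between 1.91 and 2.79 CPM. RBM39 mRNA was higher with indisulam (log2 fold change 1.22) and the combination (1.30). SRPK1 mRNA was lower with indisulam (-0.33) and the combination (-0.23). With SPHINX31 the values were 0.17 for RBM39 and -0.04 for SRPK1, neither with an adjusted p under 0.05. In bulk RNA, fewer cells in a cell cycle phase and less RNA per cell cannot be told apart.

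The promoter windows of CDK4 and E2F1 are shown because these 2 members moved in opposite directions with indisulam. Both windows run from 250 bases before to 50 bases after the RefSeq transcription start on GRCh38.p14, 5′ to 3′ on the strand of the gene. For E2F1 (chr20:33686336-33686635, minus strand) capitals mark matches to the E2F letters TTTGGCGC, TTTCCCGC, TTTCGCGC or TTTGCCGC on either strand. For CDK4 (chr12:57752261-57752560, minus strand) capitals mark the palindromic E-box letters CACGTG, which MYC and related factors can bind.
E2F1 promoter: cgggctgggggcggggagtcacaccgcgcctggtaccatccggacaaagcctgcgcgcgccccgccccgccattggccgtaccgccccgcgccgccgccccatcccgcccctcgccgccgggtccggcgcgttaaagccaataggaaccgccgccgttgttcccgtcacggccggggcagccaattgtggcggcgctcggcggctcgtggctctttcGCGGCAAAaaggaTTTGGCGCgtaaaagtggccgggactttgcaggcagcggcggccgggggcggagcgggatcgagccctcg
CDK4 promoter: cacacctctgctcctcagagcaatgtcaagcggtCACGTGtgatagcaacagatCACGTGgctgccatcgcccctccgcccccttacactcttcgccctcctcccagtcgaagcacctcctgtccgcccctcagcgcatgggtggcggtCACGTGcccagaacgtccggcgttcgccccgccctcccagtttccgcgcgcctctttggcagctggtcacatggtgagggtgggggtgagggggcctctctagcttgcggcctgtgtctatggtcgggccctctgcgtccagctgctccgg
The E2F1 window held 2 E2F matches, 33 and 20 bases before the start, and the CDK4 window held 3 E-boxes. RefSeq windows were found for 7 of the 10 members and not for CCND1, CCNE2 and CDK2. These 7 members had 10 windows, some of them at starts inside the annotated gene. The single RB1 window lay 173 kb downstream of the annotated start of RB1, so that its promoter at that start was not searched. The same holds for CDK4 and CDKN1B, whose single RefSeq starts lay 3.70 and 31.9 kb downstream of the annotated starts. For E2F1 the 2 starts were the same. Of the 10 windows 1 held an E2F match, that of E2F1, against 3.31% of 35116 windows of this length. An E-box was found in 2 of the 10, the CDK4 window and 1 of the 2 CDK6 windows, against 7.26% of all windows. A match of letters is a description of the sequence and shows no binding.

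Indisulam moved 4 of the 10 members. CCND3 and E2F1 rose, CDK4 and CCNE2 fell, and none changed by more than 0.38 on the log2 scale. Over all genes tested, 43.7% passed the same threshold in this comparison, so that 4 of 10 is close to the background. By direction, 2 of 10 members were higher against 20.1% of all genes and 2 lower against 23.5%. With SPHINX31 the 2 E-type cyclins fell and no other member passed, against a background of 8.61% in all, 4.94% higher and 3.67% lower. With the combination 5 members passed against a background of 50.0%: CCND3 rose, and CCNE1, CCNE2, CDK4 and RB1 fell, against 23.8% of all genes higher and 26.3% lower. Under scaling by library totals E2F1 also passed, giving 2 higher and 4 lower. Calls are adjusted p-values under 0.05 from the quasi-likelihood test of edgeR, with Benjamini-Hochberg adjustment over all genes tested. The 3 treated groups share the untreated libraries, so their values are not independent of each other.

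**Figure D1:**
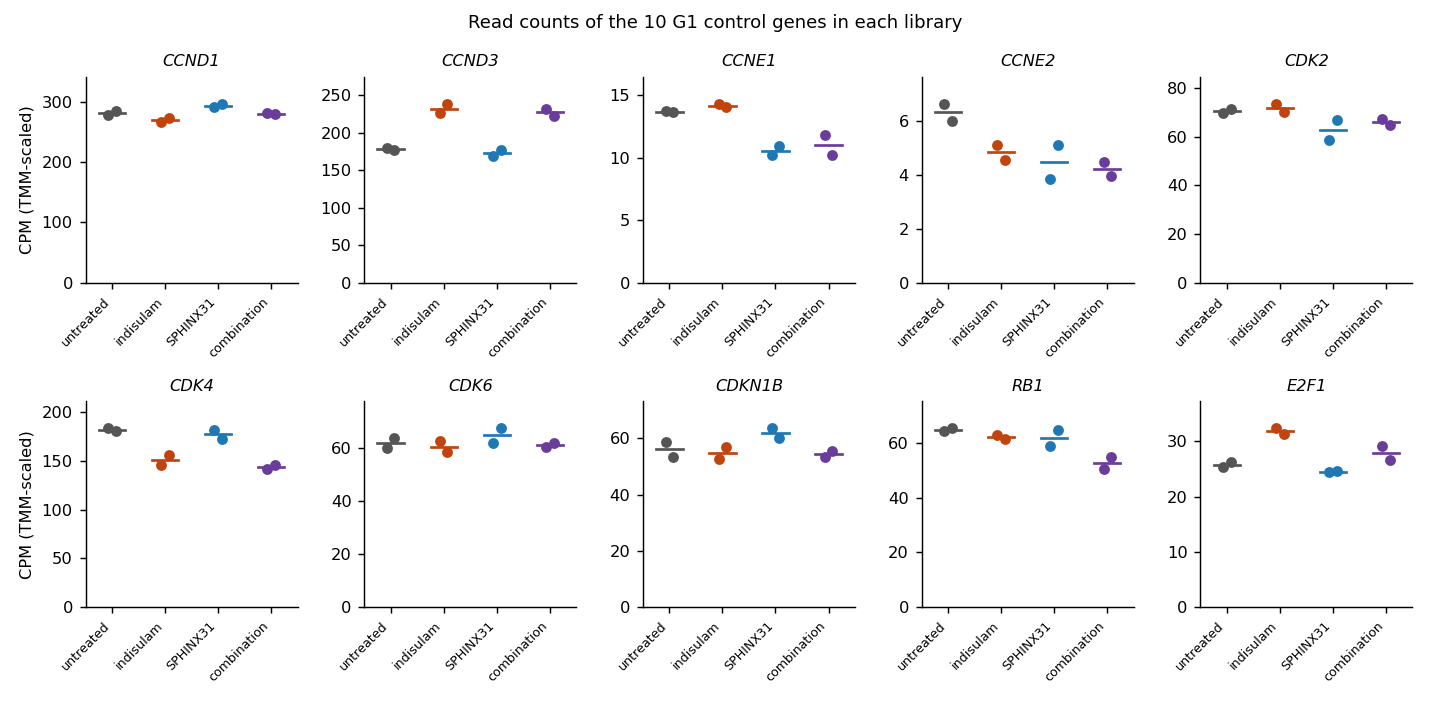
CPM (TMM-scaled, linear axis from 0) of each of the 10 members in each library, by group; points are libraries and lines are group means of 2. CCND3 in all 4 libraries with indisulam lay above the untreated and SPHINX31 libraries, CDK4 lay below them, and both E-type cyclins were lower in both SPHINX31 libraries and both combination libraries than in the untreated libraries.

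The D-type cyclins CCND1 and CCND3 behaved differently with indisulam. CCND3 (ENSG00000112576, chromosome 6, 41934934 to 42050357 of GRCh38, minus strand, 5 exons in its canonical transcript) had 180 and 177 CPM in the untreated libraries and 226 and 238 CPM with indisulam. It had 169 and 177 CPM with SPHINX31 and 232 and 222 CPM with the combination. The 4 libraries with indisulam did not overlap with the 4 without it. CCND3 rose by 1.30-fold with indisulam (log2 fold change 0.38, SE 0.050, adjusted p = 4.36e-05, edgeR with Benjamini-Hochberg adjustment) and by 1.28-fold with the combination (log2 fold change 0.35, adjusted p = 6.70e-05, same test). With SPHINX31 its log2 fold change was -0.04, with a 95% interval from -0.15 to 0.07. The combination stood 0.39 above SPHINX31 on the log2 scale (adjusted p = 2.73e-05, edgeR with Benjamini-Hochberg adjustment), while it differed from indisulam by -0.03 (95% interval -0.14 to 0.08).

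CCND1 (ENSG00000110092, chromosome 11, 69641156 to 69654474, plus strand) was the member with the highest counts. It had 278 and 285 CPM in untreated cells, 266 and 272 CPM with indisulam, 290 and 296 CPM with SPHINX31, and 281 and 279 CPM with the combination. The indisulam libraries lay below and the SPHINX31 libraries above the untreated ones, without overlap, yet by little. Its log2 fold changes were -0.07 (95% interval -0.16 to 0.03) with indisulam, 0.06 (-0.04 to 0.16) with SPHINX31 and -0.01 (-0.11 to 0.09) with the combination, and none passed the test. These intervals leave room for a change of at most 0.16 in either direction. The ratio of CCND1 to CCND3, set to a mean of 1 in untreated cells, was 0.743 and 0.722 in the indisulam libraries and 0.766 and 0.794 in the combination libraries. In the SPHINX31 libraries it was 1.09 and 1.06. The third D-type cyclin, CCND2, had at most 2 counts in any library and was not tested.

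The E-type cyclins were the members that moved with SPHINX31. CCNE1 (ENSG00000105173, chromosome 19, 29811991 to 29824312, plus strand), a regulatory subunit of CDK2, had 13.7 and 13.6 CPM in untreated cells and 14.3 and 14.0 CPM with indisulam. It had 10.2 and 10.9 CPM with SPHINX31 and 11.8 and 10.2 CPM with the combination. The 4 libraries with SPHINX31 lay below the 4 without it. CCNE1 fell to 0.773 of the untreated level with SPHINX31 (log2 fold change -0.37, SE 0.083, adjusted p = 0.0147, edgeR with Benjamini-Hochberg adjustment) and to 0.805 with the combination (log2 fold change -0.31, adjusted p = 0.00665, same test). The combination was also lower than indisulam alone (log2 fold change -0.36, adjusted p = 0.0191, edgeR with Benjamini-Hochberg adjustment). With indisulam its log2 fold change was 0.05 (95% interval -0.13 to 0.23). The SPHINX31 call was lost without untreated replicate 1, untreated replicate 2 or SPHINX31 replicate 1 (adjusted p = 0.104, 0.0893 and 0.106, edgeR), with log2 fold changes of -0.37, -0.37 and -0.33. Without combination replicate 2 the calls against untreated cells and against indisulam were lost (adjusted p = 0.0764 and 0.163, edgeR), and the latter also without indisulam replicate 1 (adjusted p = 0.0852, edgeR).

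CCNE2 (ENSG00000175305, chromosome 8, minus strand), the second CDK2 partner of this type, had the lowest level of all members. It had 6.65 and 6.02 CPM in untreated cells, 5.12 and 4.57 CPM with indisulam, 3.86 and 5.13 CPM with SPHINX31, and 4.50 and 3.97 CPM with the combination. All 6 treated libraries lay below both untreated ones, and CCNE2 was the 1 member that passed in all 3 comparisons with untreated cells. The log2 fold changes were -0.38 with indisulam (SE 0.132, adjusted p = 0.0305, edgeR with Benjamini-Hochberg adjustment), -0.49 with SPHINX31 (adjusted p = 0.0356) and -0.58 with the combination (adjusted p = 0.00254). The 2 SPHINX31 libraries were far apart, and without SPHINX31 replicate 1 the log2 fold change was -0.31 (adjusted p = 0.245, edgeR). The SPHINX31 call was also lost without untreated replicate 1 or 2 (adjusted p = 0.225 and 0.0868, edgeR) and with the replicate number as a block (adjusted p = 0.0589, edgeR). The indisulam call was lost without untreated replicate 1 (adjusted p = 0.174, edgeR), without indisulam replicate 2 (adjusted p = 0.144, edgeR) and with DESeq2 (adjusted p = 0.0683). The combination call was kept under every alternative run. CCNE2 shares 1629 bases of exon with INTS8 on the opposite strand. INTS8 had 3920 and 3850 counts in untreated cells and 5793 and 4902 with indisulam. It had 3037 and 3782 counts with SPHINX31 and 5206 and 5381 with the combination. The INTS8 counts are raw and not scaled to library size. The strand setting of the counting is not given in the sources used here. Reads in the shared bases may thus have been counted for the wrong gene or for none. The same holds for shorter overlaps of other members with genes on the opposite strand. Among these, CCND1 shares 497 bases of exon with LTO1. CDK2 shares 565 with a long noncoding RNA gene and 89 with PMEL.

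The ratio of CCNE1 to CCNE2, relative to the untreated mean, was 1.29 and 1.42 with indisulam and 1.21 and 1.19 with the combination. With SPHINX31 it was 1.22 and 0.985, and the latter value lay within the untreated range of 0.953 to 1.05.

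Among the kinases, CDK4 fell with indisulam, and CDK2 and CDK6 did not pass the test in any comparison. CDK4 (ENSG00000135446, chromosome 12, 57747727 to 57756013, minus strand, 8 exons), a catalytic partner of D-type cyclins, had 184 and 180 CPM in untreated cells and 146 and 156 CPM with indisulam. It had 182 and 173 CPM with SPHINX31 and 142 and 146 CPM with the combination. The 4 libraries with indisulam lay below the other 4. CDK4 fell to 0.829 of the untreated level with indisulam (log2 fold change -0.27, SE 0.052, adjusted p = 0.000905, edgeR with Benjamini-Hochberg adjustment) and to 0.792 with the combination (log2 fold change -0.34, adjusted p = 0.000122, same test). With SPHINX31 the log2 fold change was -0.04 (95% interval -0.15 to 0.07). The combination was lower than SPHINX31 by -0.30 on the log2 scale (adjusted p = 0.000335, edgeR with Benjamini-Hochberg adjustment) and differed from indisulam by -0.07 (95% interval -0.18 to 0.04). CDK4 shares 1369 bases of exon with TSPAN31 on the opposite strand. TSPAN31 had between 1539 and 1672 raw counts in the libraries with indisulam and between 1813 and 1954 in the others. These counts were not scaled to library size. With the strand setting not given, reads in the shared bases may have been counted for the wrong gene or for none.

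As CCND3 rose and CDK4 fell, the ratio of the cyclin to the kinase was 1.58 and 1.56 times the untreated mean in the indisulam libraries. It was 1.67 and 1.55 times that mean with the combination and 0.949 and 1.05 with SPHINX31.

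CDK6 (ENSG00000105810, chromosome 7, 92604921 to 92836573, minus strand), the other D-cyclin kinase, had 60.3 and 64.0 CPM in untreated cells, 62.8 and 58.6 CPM with indisulam, 62.2 and 67.6 CPM with SPHINX31, and 60.5 and 61.9 CPM with the combination. All groups overlapped with the untreated libraries. Its log2 fold changes were -0.03, 0.06 and -0.02, with intervals that reached from -0.16 at the lowest to 0.19 at the highest. The ratio of CDK4 to CDK6 was 0.793 and 0.908 of the untreated mean with indisulam and 0.799 and 0.807 with the combination. With SPHINX31 it was 0.998 and 0.871, and the latter value lay below 1 of the indisulam libraries.

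CDK2 (ENSG00000123374, chromosome 12, 55966781 to 55972789, plus strand), the kinase of E-type cyclins, had 69.9 and 71.2 CPM in untreated cells, 73.4 and 70.0 CPM with indisulam, 58.7 and 66.8 CPM with SPHINX31, and 67.3 and 64.9 CPM with the combination. Both SPHINX31 libraries and both combination libraries lay below the untreated ones. The log2 fold change with SPHINX31 was -0.17 (95% interval -0.30 to -0.03, adjusted p = 0.118, edgeR with Benjamini-Hochberg adjustment), and it passed with a correction for GC content (adjusted p = 0.0347, edgeR) or without SPHINX31 replicate 2 (adjusted p = 0.0206, edgeR). With indisulam and the combination it was 0.02 and -0.09, and neither passed.

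CDKN1B (ENSG00000111276, chromosome 12, 12685498 to 12722369, plus strand) encodes p27, an inhibitor of cyclin E and CDK2 complexes. It had 58.8 and 53.5 CPM in untreated cells and 52.6 and 56.9 CPM with indisulam, and these overlapped. With SPHINX31 it had 63.6 and 60.1 CPM, both above the untreated libraries, and with the combination 53.4 and 55.5 CPM. No comparison with untreated cells passed, and the log2 fold change with SPHINX31 was 0.14 (95% interval 0.003 to 0.28, adjusted p = 0.196, edgeR with Benjamini-Hochberg adjustment). The combination was lower than SPHINX31 (log2 fold change -0.18, adjusted p = 0.0275, edgeR with Benjamini-Hochberg adjustment). That call was lost without SPHINX31 replicate 1, combination replicate 1 or combination replicate 2 (adjusted p = 0.176, 0.177 and 0.0566, edgeR).

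RB1 fell with the combination and passed with neither agent alone. RB1 (ENSG00000139687, chromosome 13, 48303744 to 48599436, plus strand, 27 exons), the brake that D- and E-type cyclin complexes inactivate, had 64.6 and 65.5 CPM in untreated cells, 62.9 and 61.6 CPM with indisulam and 58.9 and 65.0 CPM with SPHINX31. With the combination it had 50.6 and 55.0 CPM, below all 6 other libraries. It fell to 0.812 of the untreated level (log2 fold change -0.30, SE 0.061, adjusted p = 0.00115, edgeR with Benjamini-Hochberg adjustment). The log2 fold changes with the single agents were -0.06 (95% interval -0.20 to 0.07) with indisulam and -0.07 (-0.20 to 0.06) with SPHINX31. The combination was lower than indisulam (log2 fold change -0.24, adjusted p = 0.0333, edgeR with Benjamini-Hochberg adjustment) and lower than SPHINX31 (-0.23, adjusted p = 0.00703). The difference from indisulam was lost with library totals as the scaling and without any 1 of the 6 untreated, indisulam or combination libraries (adjusted p from 0.0581 to 0.235, edgeR), and the difference from SPHINX31 without SPHINX31 replicate 2 or combination replicate 1 (adjusted p = 0.0902 and 0.101, edgeR). The test of the departure from the sum of the single effects gave a log2 value of -0.17 (SE 0.087, 95% interval -0.35 to 0.02, adjusted p = 0.636, edgeR with Benjamini-Hochberg adjustment), so that a greater fall than the sum was not shown.

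E2F1 (ENSG00000101412, chromosome 20, 33675477 to 33686385, minus strand, 7 exons), the transcription factor that RB restrains, had 25.3 and 26.2 CPM in untreated cells and 32.4 and 31.3 CPM with indisulam. It had 24.4 and 24.6 CPM with SPHINX31 and 29.2 and 26.7 CPM with the combination. The indisulam libraries were the highest of all, and the combination libraries lay between them and the untreated ones. E2F1 rose by 1.23-fold with indisulam (log2 fold change 0.30, SE 0.064, adjusted p = 0.00173, edgeR with Benjamini-Hochberg adjustment). With the combination the log2 fold change was 0.12 (adjusted p = 0.147) and passed only when libraries were scaled by their totals (0.17, adjusted p = 0.0435), both with edgeR and Benjamini-Hochberg adjustment. The combination was higher than SPHINX31 (log2 fold change 0.19, adjusted p = 0.0254, edgeR with Benjamini-Hochberg adjustment). That call was lost with no filter beyond 1 count (adjusted p = 0.0524, edgeR) and without SPHINX31 replicate 1, SPHINX31 replicate 2 or combination replicate 1 (adjusted p = 0.0600, 0.0527 and 0.159, edgeR). It differed from indisulam by -0.19 (95% interval -0.32 to -0.05, adjusted p = 0.0959), and its log2 fold change with SPHINX31 was -0.07.

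**Figure D2:**
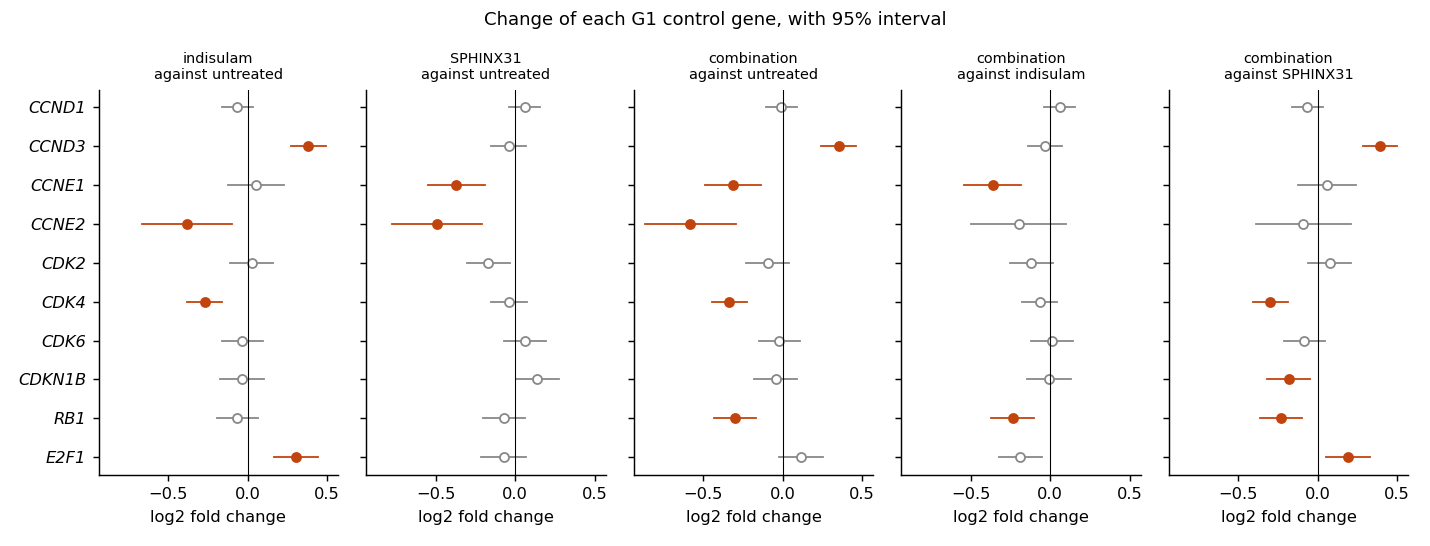
Log2 fold change of each member in 5 comparisons, with 95% intervals from edgeR's quasi-likelihood fit; filled orange points have an adjusted p under 0.05. CCND1, CDK2 and CDK6 passed in none, and CCNE2 had the lowest value in each comparison with untreated cells, from -0.38 to -0.58.

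Between the groups with SPHINX31 and without it on top of indisulam, 2 of 10 members passed, CCNE1 and RB1, both lower with the combination, against a background of 7.50% in all, 3.17% higher and 4.32% lower. The direction of that background depended on the scaling, with 592 genes higher and 807 lower under TMM and 942 higher and 498 lower with library totals. Without indisulam replicate 1 or combination replicate 2 neither passed. Between the combination and SPHINX31 alone, 5 of 10 passed against a background of 49.9%, with CCND3 and E2F1 higher (background 23.4%) and CDK4, CDKN1B and RB1 lower (26.5%). For the departure from the sum of the single effects, 0 of 10 members passed with edgeR, 0 had an unadjusted p under 0.05, and the background was 0 of 18661 genes, of which 1584 had an unadjusted p under 0.05. DESeq2 called 32 genes in that test, none of them a member, although it gave no adjusted p for CCNE1 and CCNE2. The intervals of this departure were wide for CCNE2, from -0.12 to 0.71, and narrowest for CCND1, from -0.14 to 0.14. The median log2 fold change of the 10 members was -0.04 with indisulam, -0.06 with SPHINX31 and -0.07 with the combination, and that of all genes tested was between -0.01 and 0.00 in these comparisons.

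Levels per length were compared between members in 2 ways, since several members have exons that their canonical transcript lacks. Per kb of all annotated exons, untreated cells had 59.1 CPM per kb of CCND1 and 58.9 of CDK4, which did not differ beyond their spread. CCND3 followed with 30.9, CDK2 with 18.1, RB1 with 10.1, E2F1 with 9.58, CDKN1B with 6.07, CCNE1 with 5.55, CDK6 with 5.08 and CCNE2 with 1.44 CPM per kb, and the libraries of these neighbours did not overlap. Per kb of the canonical transcript, CDK4 was first with 97.7, followed by CCND3 with 87.9 and CCND1 with 66.4 CPM per kb, and CDKN1B, whose annotated exons span 9255 bases against 2411 in its canonical transcript, moved up to 23.3. On that scale CCND3 exceeded CDK4 with indisulam (115 against 81.0 CPM per kb) and with the combination (112 against 77.3), while CDK4 exceeded CCND3 in untreated cells and with SPHINX31. Per kb of all exons CDK4 exceeded CCND3 in every group. On both scales CCNE2 was last in each of the 4 groups and CDK4 was above CDK6 and CDK2. E2F1 exceeded RB1 per kb of all exons with indisulam (11.8 against 9.68) and the combination (10.4 against 8.21), whereas RB1 exceeded E2F1 in the other groups, and per kb of the canonical transcript RB1 was above E2F1 in all 4 groups, with overlapping libraries in the combination.

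**Figure D3:**
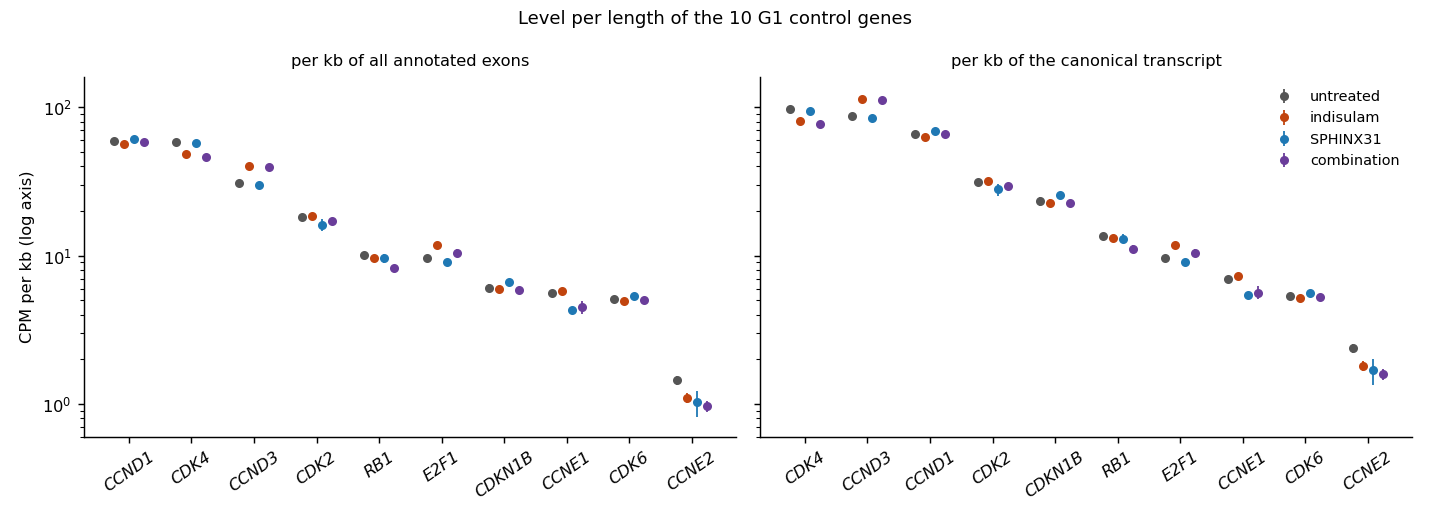
Mean level of each member in each group per kb of all annotated exons (left) and per kb of the canonical transcript (right), in CPM per kb on a log axis; bars are SD of 2 libraries. CCNE2 was last on both scales, between 0.962 and 2.37 CPM per kb, and the order of CCND1, CCND3 and CDK4 depended on the length used.

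The genes whose profile over the 8 libraries was most like that of the 3 members with the largest change in the combination are given as a description, since the points share their treatments. For CCNE2 these were HOXB3, MAT2A and C21orf58, with Pearson correlations of 0.962, 0.950 and 0.948. For CCND3 they were HS3ST3B1, KCNK3 and PIP4K2B, with 0.995, 0.995 and 0.994. For CDK4 they were PYCR1, PSKH1 and CARM1, with 0.998, 0.995 and 0.994. PYCR1, a proline synthesis enzyme, had mean levels of 149, 87.5, 142 and 75.7 CPM in untreated, indisulam, SPHINX31 and combination cells.

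Another 67 genes of the pathway in 5 lists, of which 66 were tested, set the members in their surroundings. With indisulam 35 passed, 16 higher and 19 lower, with SPHINX31 15, 1 higher and 14 lower, and with the combination 38, 13 higher and 25 lower. The shares of all genes tested were 43.7%, 8.61% and 50.0%, and 23.5%, 3.67% and 26.3% were lower, against which the counts of each list are to be read. With libraries scaled by their totals, the SPHINX31 split was 2 higher and 10 lower, and that of all genes went from 921 higher and 685 lower to 1341 and 515. Their median log2 fold changes were 0.02, -0.10 and -0.07. The SPHINX31 count of pathway genes fell without untreated replicate 1 or 2 or SPHINX31 replicate 1, and so did the count over all genes. Without SPHINX31 replicate 2 the count of pathway genes rose, while that over all genes did not. The indisulam count was 23 without untreated replicate 1. Of the 41 calls of named genes in these lists, 12 were lost under at least 1 alternative.

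Among 8 tested partners of cyclins and CDKs, 4 passed with indisulam, 1 with SPHINX31 and 5 with the combination, with median log2 fold changes of 0.05, -0.01 and -0.15. With library totals 1 further partner passed as higher with SPHINX31. CCNH, the cyclin of the CDK-activating kinase that phosphorylates CDK2 and CDK4, had 1544 and 1492 counts in untreated cells, 547 and 454 with indisulam, 1500 and 1636 with SPHINX31, and 535 and 523 with the combination. Its log2 fold changes were -1.45 with indisulam (adjusted p = 6.92e-09, edgeR with Benjamini-Hochberg adjustment) and -1.43 with the combination. Its kinase CDK7 rose by 0.30 on the log2 scale with the combination. CDC25A, the phosphatase that activates CDK2, rose by 0.26 with indisulam, CDK1, the mitotic kinase, fell by 0.26 with SPHINX31, and CCNA1, at most 0.65 CPM in any library, fell by 0.91 with indisulam and by 1.13 with the combination. The indisulam count was 1 without untreated replicate 1 or indisulam replicate 1 and 2 without untreated replicate 2, and CDC25A lost its call in each case. The CDK1 call with SPHINX31 was lost without either untreated library or SPHINX31 replicate 1. The combination count was 3 without untreated replicate 1 or combination replicate 1, and CCNA1 lost its call there, with DESeq2 and, for indisulam, without any 1 library of the untreated, indisulam or SPHINX31 groups or with the replicate block.

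Of the 6 other CDK inhibitors, 1 passed with indisulam, 1 with SPHINX31 and 3 with the combination, with median log2 fold changes of -0.02, 0.23 and 0.01. The split of these few calls depended on the scaling, with 2 higher and 1 lower for SPHINX31 after GC correction and 2 higher and 2 lower for the combination with GC correction or library totals. CDKN1A (p21), a target of p53, had 55.3 and 56.0 CPM in untreated cells, 57.8 and 62.3 CPM with indisulam, 78.9 and 72.1 CPM with SPHINX31, and 78.6 and 84.2 CPM with the combination. The 4 libraries with SPHINX31 lay above the other 4. It rose by 0.44 on the log2 scale with SPHINX31 (adjusted p = 0.000819) and by 0.55 with the combination (adjusted p = 7.77e-06), both from edgeR with Benjamini-Hochberg adjustment. CDKN2C and CDKN2D, inhibitors of CDK4 and CDK6, fell by 0.31 and 0.49 with the combination, and CDKN2B, at most 1.85 CPM, fell by 0.60 with indisulam. The CDKN2B call was lost without untreated replicate 1 or either indisulam library, with DESeq2 and when only the groups compared were fitted. The SPHINX31 count was 2 without indisulam replicate 1 or 2.

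Of the 10 genes that act on turnover of cyclins and p27, 5 passed with indisulam, 2 with SPHINX31 and 6 with the combination, with median log2 fold changes of 0.09, -0.04 and 0.07. SKP2, which targets p27 for ubiquitination, had 29.6 and 31.3 CPM in untreated cells and 20.4 and 25.8 CPM with SPHINX31, a fall of 0.40 on the log2 scale (adjusted p = 0.0136, edgeR with Benjamini-Hochberg adjustment), and it fell by 0.42 with the combination. CUL1, the scaffold of the SCF ubiquitin ligase, fell by 0.40 with indisulam and by 0.43 with the combination. SKP1, its adaptor, rose by 0.27 and 0.22 in the same comparisons, and RBX1, its RING subunit, rose by 0.29 with indisulam and fell by 0.33 with SPHINX31. CKS1B, the cofactor of SKP2, fell by 0.19 with indisulam, and AMBRA1, which targets D-type cyclins, rose by 0.34 with the combination. The SPHINX31 count was 0 without untreated replicate 1 and 1 without untreated replicate 2 or SPHINX31 replicate 1, with SKP2 lost in all 3 cases and RBX1 in the first. The indisulam count was 3 without untreated replicate 2, where CKS1B lost its call, as it did without indisulam replicate 2.

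Of the 16 other RB family, E2F, DP and MuvB genes, 8 passed with indisulam, 1 with SPHINX31 and 9 with the combination, with median log2 fold changes of 0.01, -0.03 and -0.10. RBL1 (p107), an RB relative, had 30.6 and 35.3 CPM in untreated cells, 15.4 and 13.9 CPM with indisulam, 26.6 and 34.9 CPM with SPHINX31, and 12.0 and 12.6 CPM with the combination. Its log2 fold changes were -1.17 with indisulam (adjusted p = 3.07e-06, edgeR with Benjamini-Hochberg adjustment) and -1.42 with the combination. E2F8 rose by 0.41 with indisulam, and E2F7, which like E2F8 represses E2F targets, fell by 0.52 with the combination. TFDP1, the partner of E2F1, fell by 0.23 with SPHINX31, and TFDP2 rose by 0.32 with the combination. LIN37, of the MuvB complex, rose by 0.77 with indisulam and by 0.80 with the combination at no more than 2.83 CPM, and LIN52, another MuvB subunit, fell by 0.30 with indisulam. The indisulam count was 4 without untreated replicate 1 or 2 and 5 without indisulam replicate 1, and LIN52 lost its call in the latter 2 of these 3 cases. The SPHINX31 count was 0, without TFDP1, when either untreated library or SPHINX31 replicate 1 was left out, and 3 without SPHINX31 replicate 2.

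Of the 26 E2F targets, 17 passed with indisulam, 8 higher and 9 lower, against 20.1% of all genes higher and 23.5% lower, with a median log2 fold change of 0.06. ORC1, the largest subunit of the origin recognition complex, rose from 35.8 and 35.8 CPM to 58.9 and 58.3 CPM, a log2 fold change of 0.71, and GINS1, a subunit of the replicative helicase, rose by 0.69. POLA1, the catalytic subunit of DNA polymerase alpha, fell from 77.9 and 85.4 CPM to 35.7 and 33.3 CPM, a log2 fold change of -1.24 (adjusted p = 2.43e-08, edgeR with Benjamini-Hochberg adjustment), and POLE2 fell by 0.95. With the combination 15 passed, 4 higher and 11 lower, against 23.8% and 26.3% of all genes, with a median of -0.07. ORC1 rose by 0.78 and CDT1, a licensing factor, by 0.58, and POLA1 fell by 1.63 and CDC45, a helicase cofactor, by 1.14.

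With SPHINX31 10 of the 26 E2F targets passed, all lower, against 8.61% of all genes in all and 3.67% lower. The median log2 fold change of the list was -0.20 against -0.01 for all genes. MCM4, a helicase subunit, had 254 and 257 CPM in untreated cells and 179 and 220 CPM with SPHINX31, a fall of 0.36 on the log2 scale (adjusted p = 0.00836, edgeR with Benjamini-Hochberg adjustment). GINS1 fell by 0.35. In each SPHINX31 library 25 of the 26 targets lay below both untreated libraries, as did 41.6% and 38.9% of all genes in replicates 1 and 2. The libraries differed in degree, with a median log2 ratio to the untreated mean of -0.31 in replicate 1 and -0.10 in replicate 2. With libraries scaled by their totals 6 targets passed, and with the GC correction 19, all lower. Of all genes, 515 and 1423 were lower in these settings, against 685 in the main fit. Fewer targets passed without SPHINX31 replicate 1, either untreated library or either combination library, as was so for all genes. Without SPHINX31 replicate 2 more targets passed, while the count over all genes did not rise. The targets that passed were lower each time. MCM4 lost its call without either untreated library and GINS1 without untreated replicate 2. All 26 targets were lower in SPHINX31 replicate 1 than in replicate 2, as were 8 of the 10 members, all but CDK4 and CDKN1B, and 52.0% of all genes. E2F1 differed little between these 2 libraries (24.4 and 24.6 CPM).

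**Figure D4:**
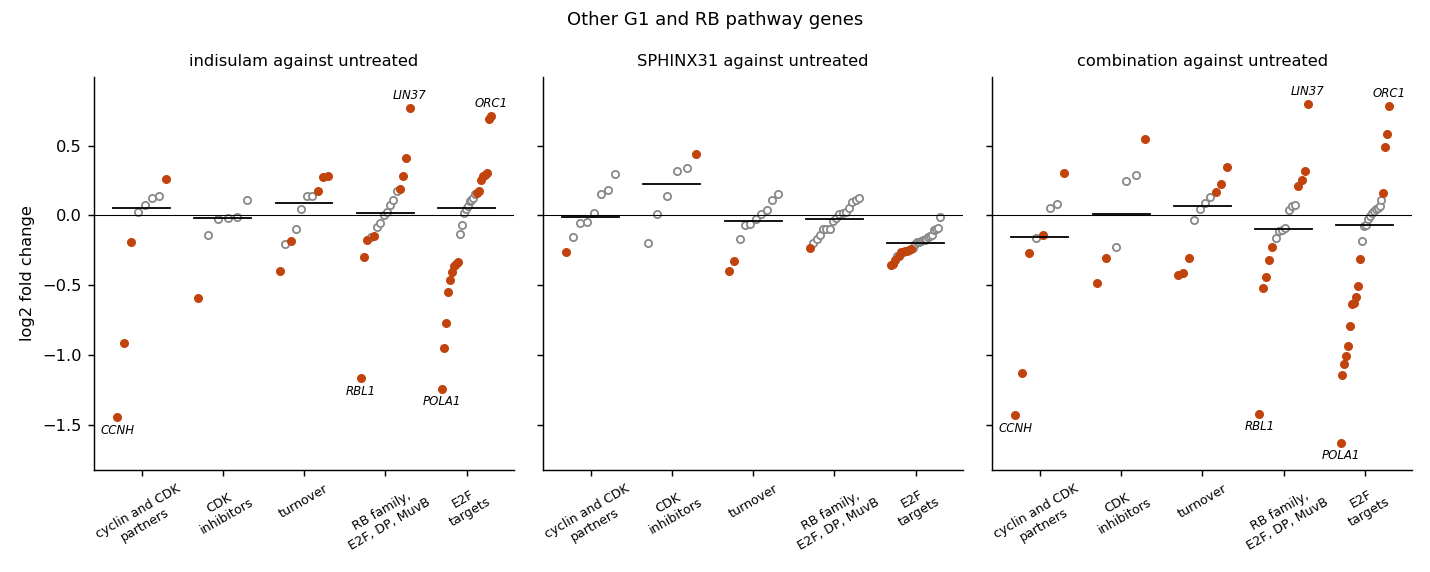
Log2 fold change of the 66 other pathway genes tested, by list, for the 3 treatments against untreated cells; filled orange points have an adjusted p under 0.05 (edgeR) and black lines are list medians. The E2F targets spread from -1.24 to 0.71 with indisulam and lay below 0 throughout with SPHINX31, with a median of -0.20.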

How the data were processed

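The authors sequenced stranded polyA+ libraries of A549 RNA. The submitters' processing notes name HISAT2 2.2.1, HTSeq and GRCh38. The annotation release and strand setting are not given in the sources used here. The deposited values are raw counts of reads per Ensembl gene in each library. Between 14.0% and 17.0% of reads in a library were in rows that name no gene and were left out.

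Counts of all 8 libraries were fitted together with edgeR 4.0.16 in R 4.3.3 (filterByExpr, TMM, quasi-likelihood test, 4 residual degrees of freedom). Benjamini-Hochberg adjustment ran over 18661 genes. Fold changes were called at a threshold of 0.05 on the adjusted p. CPM values are scaled by TMM. The procedure was run on simulated counts with the spread fitted to these libraries. Such counts follow the model that the procedure assumes, so that the run cannot show whether this model fits the libraries. The run also does not cover the spread between independent treatments. Genes, exons and lengths came from GENCODE 44, which matched 60370 of 60624 genes, and promoter windows from RefSeq. Python 3.11.15 with pandas 2.3.3 made the summaries. At the depth of 51727369 to 63186989 counts log2 fold changes against untreated cells had a standard error between 0.045 for CCND1 and 0.133 for CCNE2.

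The members and lists were chosen with earlier results of these data known. The genes named are all members and, per list and treatment, the 2 genes with the largest rise and the 2 with the largest fall among those that passed. Genes most like a member are the 3 with the highest correlation for the 3 members with the largest change with the combination. RBM39 and SRPK1 were named as targets of the 2 compounds, and CCND2 was named after its values were seen. Alternatives were RLE factors, library totals, DESeq2 1.42.0, other count filters, fits of the compared groups only, a replicate block, the same with replicate 1 and 2 of indisulam swapped, added once the data had been seen, a GC correction with 50 bins, both together, and leaving out each library.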

Additional observations from a re-analysis of the deposited data

Results flagged for a closer look

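Reads outside annotated features, which no comparison above uses, took a larger share in the libraries with indisulam. They were 5.48% and 4.49% of reads with indisulam and 5.88% and 4.87% with the combination, against 3.94% and 4.34% in untreated cells. With SPHINX31 they were 3.67% and 3.93%. All 4 libraries with indisulam lay above both untreated libraries. These reads carry no gene name in the tables, and their part in the values of CCND3, CDK4 and E2F1 was not tested.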

How the results depend on the processing

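Of 1068 pairs of a member's value and an alternative setting, 1035 kept their side of the threshold, 29 lost the call and 4 gained one. Of the called values 0 changed sign. Among the 1035 pairs were 55 in which neither value passed and the sign differed. CCND3 and CDK4 kept their calls with indisulam and the combination, and against SPHINX31, under every setting run, as did E2F1 with indisulam and CCNE2 and RB1 with the combination against untreated cells. The cause of the other changes was not tested. With SPHINX31, the replicate block left 1 member, and the pathway genes that passed were 27 with the GC correction, 26 with GC correction and block, and 27 with crossed indisulam numbers. All genes that passed were 2777, 2420 and 2630 in these settings. For the combination against indisulam, library totals left 1 member, GC correction gave 24 pathway genes and 2304 genes in all, and crossed numbers 23 and 2252. For the departure from the sum, no filter beyond 1 count, GC correction, crossed numbers and DESeq2 each gave 1 pathway gene, and 94, 13, 12 and 32 genes in all. With each library left out in turn, a lone library being assumed to vary like the other groups, members that passed were 3 to 4 with indisulam, 0 to 3 with SPHINX31, 4 to 5 with the combination, 0 to 2 for the combination against indisulam, 2 to 5 against SPHINX31 and 0 to 0 for the departure. Pathway genes were 23 to 39, 2 to 28, 32 to 40, 7 to 21, 34 to 42 and 0 to 0, and all genes 5887 to 8379, 482 to 1810, 7209 to 9565, 440 to 1612, 7340 to 9523 and 0 to 1. With library totals the calls split differently: pathway genes with SPHINX31 were 2 higher and 10 lower, and for the combination against indisulam 5 higher and 9 lower. All-gene medians shifted by at most 0.053 (log2).

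The labels do not say what the replicate numbers mark. Deviations of same-numbered libraries correlated at -0.569 (untreated and indisulam), -0.494 (indisulam and SPHINX31) and up to 0.455 (untreated and SPHINX31) over 9946 genes, and the numbers were not taken as pairs. The crossed setting is a block in which replicate 1 and 2 of indisulam were swapped, added once the data had been seen.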
